A study of Mus musculus with 4 samples.

Results

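The genes described are 37 genes of cholesterol and fatty acid synthesis, matched by symbol to the 46078 gene rows of a count table. They were chosen from knowledge of these pathways, but with earlier results of these data known. All 37 were found and all 37 passed the filter on low counts that left 14995 genes. RNA was measured by sequencing of poly(A) libraries in 4 mouse samples. The 2 Ctrl libraries came from animals with the CD11c-cre transgene alone, and the 2 Il33flx libraries from animals with CD11c-cre and Il33flx/flx, in which Cre can remove loxP-flanked Il33 in cells that use the CD11c promoter. That promoter is active in dendritic cells (DCs) and in some macrophages and other immune cells. Animals of both groups carried EL4-Flt3 tumour cells, a mouse T lymphoma line, until sacrifice after 10 days. Cells from spleen and mesenteric lymph node together were sorted for CD45, CD11b, MHCII and CD103 and against CD64. The labels used here name neither age nor sex. Whether each library is a different animal or a pool is not in the labels, and the p-values therefore measure only the spread between libraries, which may be technical.

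Cholesterol is built from acetyl-CoA through mevalonate, isoprenoid units, squalene and lanosterol. When membrane sterol is low, SCAP carries the SREBP factors from the endoplasmic reticulum to the Golgi, where they are cut free to enter the nucleus and raise transcription of sterol and fatty acid genes. INSIG proteins hold SCAP back when sterol is plentiful, and oxysterols then activate the LXR receptors, which raise cholesterol export. In dendritic cells, lipid metabolism is known to bear on maturation and antigen presentation.

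No difference in these genes passed the test between Il33flx and Ctrl. Of the 37 genes, 0 were called by the quasi-likelihood test of edgeR at an adjusted p below 0.05, against 0.00667% of all genes tested, and the smallest adjusted p was 0.995. The estimates were mostly below 0: 29 of the 37 log2 fold changes of Il33flx over Ctrl were negative, as were 48.2% of all genes. Their median was -0.18, against 0.01 over all genes. Both Il33flx libraries lay below both Ctrl libraries for 15 of the 37 genes, or 40.5%, against 14.9% of all genes. Both lay above for 2 genes, Elovl6 and Scd1, against 15.4% of all genes. The other 20 overlapped. The median was -0.07 without Ctrl 1, -0.28 without Ctrl 2 and -0.11 without Il33flx 1.

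The smallest unadjusted p values were those of 3 enzymes. Lss, which closes squalene epoxide into lanosterol, and Fasn, which makes palmitate, had lower means in Il33flx, at 65.5% and 72.2% of Ctrl. Scd1, which puts the first double bond into stearate, had a higher mean, at 161% of Ctrl. By the same edgeR test, an unadjusted p under 0.05 was reached in the lower direction by those 2 genes of 37, against 1.24% of all genes, and in the higher direction by Scd1 alone, against 2.02% of all genes. In the authors' deposited DESeq2 table, 0 of the 37 genes were called, against 51 of all 15001 genes in it. Of the 37, 30 had a negative fold change and 3 had an unadjusted p under 0.05 there. For these counts the shares over all genes of the deposited table are not given here. With DESeq2 run again on the counts, 3 of the 37 genes and 518 of 15324 genes had an unadjusted p under 0.05.

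The 4 libraries held 67707682 to 81217828 gene counts, and 3 counts, the upper limit behind a count of 0, equalled 0.0391 to 0.0425 CPM (counts scaled to a common library total). Il33, the targeted gene, had 4 and 8 counts in Ctrl and 4 and 0 in Il33flx, too few to pass the filter or to check the genotype. Itgax, which encodes CD11c and is not among the sorting markers named above, read 647 and 517 CPM in Ctrl and 359 and 407 CPM in Il33flx. It was lower in Il33flx without overlap, as were 14.9% of all genes. The log2 fold change of Itgax was -0.60 ± 0.19 (SE), with an unadjusted edgeR p of 0.0182 and an adjusted p of 0.995. An unadjusted p under 0.05 in the lower direction was reached by 1.24% of all genes. Of the genes of the sorting gate, Ptprc (CD45), Itgam (CD11b), Itgae (CD103) and H2-Ab1 (MHCII) overlapped between the groups. Their log2 fold changes were 0.26, -0.16, -0.47 and -0.10. Fcgr1, which encodes the excluded CD64, read 3.66 to 5.50 CPM. Values below are CPM normalized by the TMM method.

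The sequence upstream of 5 genes is shown because these genes cover the steps described next: the entry to the mevalonate pathway, lanosterol synthase, an SREBP factor, an SREBP inhibitor and fatty acid synthase. The sequences are from RefSeq on GRCm38.p6, read 5′ to 3′ along the gene, and end at the more upstream of the RefSeq and GENCODE M21 starts. They are chr13:119690101-119690350 (plus strand) for Hmgcs1, chr15:82147019-82147180 (plus) for Srebf2, chr5:28071162-28071362 (plus) for Insig1, chr10:76531355-76531587 (plus) for Lss and chr11:120824548-120824797 (minus) for Fasn. Capitals mark 4 motifs searched on both strands. The SRE-like motif is TCACNCCA. The box bound by the factor NF-Y is CCAAT, which reads ATTGG on the reverse strand. The GC box bound by factors of the Sp family is GGGCGG, with CCGCCC as its reverse. The E-box is CACGTG, which is its own reverse.
Hmgcs1: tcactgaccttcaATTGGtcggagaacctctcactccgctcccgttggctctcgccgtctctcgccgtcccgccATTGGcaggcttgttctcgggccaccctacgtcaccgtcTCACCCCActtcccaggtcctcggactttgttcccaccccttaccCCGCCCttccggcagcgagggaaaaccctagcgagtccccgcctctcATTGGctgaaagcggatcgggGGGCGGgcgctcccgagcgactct
Srebf2: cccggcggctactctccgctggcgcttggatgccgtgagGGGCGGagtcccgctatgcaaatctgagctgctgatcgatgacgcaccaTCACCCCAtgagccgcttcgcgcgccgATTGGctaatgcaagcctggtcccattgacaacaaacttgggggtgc
Insig1: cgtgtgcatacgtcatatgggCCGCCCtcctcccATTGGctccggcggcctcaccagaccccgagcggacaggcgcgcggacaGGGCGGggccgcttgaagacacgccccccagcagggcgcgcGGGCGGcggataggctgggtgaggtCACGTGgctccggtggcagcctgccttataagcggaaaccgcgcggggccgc
Lss: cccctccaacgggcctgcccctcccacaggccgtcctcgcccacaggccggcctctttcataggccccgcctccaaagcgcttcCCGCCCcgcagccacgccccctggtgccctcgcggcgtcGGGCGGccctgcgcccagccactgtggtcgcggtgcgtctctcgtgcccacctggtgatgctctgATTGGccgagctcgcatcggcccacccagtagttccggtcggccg
Fasn: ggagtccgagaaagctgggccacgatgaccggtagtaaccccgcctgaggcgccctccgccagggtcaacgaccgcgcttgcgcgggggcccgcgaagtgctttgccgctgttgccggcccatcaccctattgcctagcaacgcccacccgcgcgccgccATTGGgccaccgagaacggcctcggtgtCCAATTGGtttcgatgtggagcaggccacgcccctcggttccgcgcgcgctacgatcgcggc

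In these windows, Hmgcs1 and Srebf2 held TCACCCCA, which begins 137 bases before the end of the sequence shown for Hmgcs1 and 74 bases before that of Srebf2. The E-box of Insig1 begins 52 bases before the end of its sequence. In Fasn a forward and a reverse CCAAT match overlap. RefSeq promoters were found for 29 of the 37 genes, 38 promoters in all. In the 250 bases before the RefSeq start, TCACNCCA was found in 3 of the 38 promoters, those of Hmgcs1, Msmo1 and Srebf2, and in 3.67% of 32851 promoters of all genes. The CCAAT box was found in 21 of the 38 and in 33.8% of all, the GC box in 25 and in 32.7%, and the E-box in 7 and in 6.02%. The motifs were chosen after member promoters had been looked at, and a match describes letters only.

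Of the 7 genes of the mevalonate steps, 6 had negative estimates, 2 were lower in Il33flx without overlap and 0 were called. Their median log2 fold change was -0.16. Over all genes 48.2% had negative estimates, and 14.9% were lower and 15.4% higher without overlap, the background for each role group below. Acat2, which joins acetyl-CoA units, read 14.1 and 14.2 CPM in Ctrl and 10.9 and 14.1 CPM in Il33flx. Only Il33flx 1 stood clearly lower, and the groups were apart by less than the digits shown. Reads of its close copy Acat3 could be lost or shared, and Acat3 itself had 0 to 9 counts. Hmgcs1 (chr13:119690379-119708260, plus strand), which makes HMG-CoA, read 53.1 and 82.6 CPM in Ctrl and 59.6 and 55.1 CPM in Il33flx. The lowest and highest values were both Ctrl libraries, and the log2 fold change was -0.24 ± 0.25 (SE).

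Mvk, mevalonate kinase, read 18.2 and 13.4 CPM in Ctrl and 12.3 and 17.1 CPM in Il33flx. Pmvk, the next kinase, read 52.9 and 39.2 CPM in Ctrl and 37.9 and 47.8 CPM in Il33flx. Both kinases were highest in Ctrl 1, and their groups overlapped. Mvd, the decarboxylase that yields isopentenyl diphosphate, read 37.7 and 28.8 CPM in Ctrl and 24.5 and 28.7 CPM in Il33flx, a narrow separation with a log2 fold change of -0.32 ± 0.23 (SE), which was -0.11 without Ctrl 1 and -0.51 without Ctrl 2.

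Idi1 (chr13:8885501-8892451, plus strand), the isomerase that balances the isoprenoid units, read 1.15 CPM in Ctrl 1, 3.91 CPM in Ctrl 2, 3.90 CPM in Il33flx 1 and 3.61 CPM in Il33flx 2. Ctrl 1 alone was low, on 88 counts against 256 to 294 in the other libraries. Its log2 fold change of 0.57 ± 0.57 (SE) became -0.05 without Ctrl 1 and 1.70 without Ctrl 2. Fdps, which joins isoprenoid units into farnesyl diphosphate, read 4.01 and 3.42 CPM in Ctrl and 2.79 and 3.85 CPM in Il33flx, with overlap. In GENCODE M21, 26.7% of the exon bases of Fdps are shared with Gm43738 on the same strand, so its level is uncertain.

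The 3 genes from squalene to lanosterol had a median of -0.33, with the groups apart and Il33flx lower for 2 of them. Fdft1, squalene synthase, read 39.3 and 34.0 CPM in Ctrl and 27.4 and 30.9 CPM in Il33flx. The estimate was -0.33 ± 0.20 (SE) in log2 units, and 18.3% of its exon bases overlap Ctsb on the opposite strand, which cannot be told apart because no source used here gives the strand setting. Sqle, squalene epoxidase, read 58.3 and 72.2 CPM in Ctrl and 60.6 and 79.5 CPM in Il33flx, with overlap. Lss (chr10:76531588-76557138, plus strand) read 55.6 and 42.0 CPM in Ctrl and 28.0 and 35.8 CPM in Il33flx.

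The Il33flx libraries were the lowest for Lss without overlap, with means of 48.8 ± 9.59 and 31.9 ± 5.54 CPM (SD, n = 2 each). The log2 estimate of -0.61 ± 0.24 (SE) had a 95% interval from -1.18 to -0.04, and was -0.39 without Ctrl 1 and -0.80 without Ctrl 2. By edgeR the unadjusted p was 0.0391 and the adjusted p 0.995.

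Of the 8 genes from lanosterol to cholesterol, 6 had negative estimates, with a median of -0.09. Without overlap 3 lay lower, against 14.9% of all genes. The 3 were Nsdhl, a sterol dehydrogenase, Ebp, a sterol isomerase, and Dhcr7, the last reductase. Nsdhl read 44.9 and 42.0 CPM in Ctrl and 37.9 and 36.8 CPM in Il33flx. Ebp read 87.9 and 69.7 CPM in Ctrl and 64.2 and 68.0 CPM in Il33flx. Dhcr7 read 25.4 and 27.7 CPM in Ctrl and 22.6 and 23.1 CPM in Il33flx. Their estimates, -0.22, -0.25 and -0.22, were each about as large as their standard errors of 0.19 to 0.20.

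The other 5 genes overlapped. Cyp51, which removes a methyl group of lanosterol, read 68.8 and 112 CPM in Ctrl and 89.3 and 91.5 CPM in Il33flx. Msmo1, which acts on the next methyl groups, read 16.2 and 31.0 CPM in Ctrl and 21.9 CPM in both Il33flx libraries. Both Il33flx libraries lay between the Ctrl libraries for these genes and for Sc5d. Sc5d, which adds a ring double bond, read 26.9 and 42.0 CPM in Ctrl and 38.9 and 34.2 CPM in Il33flx. Hsd17b7, a ketosteroid reductase, read 7.75 and 7.29 CPM in Ctrl and 5.65 and 8.54 CPM in Il33flx. Tm7sf2, a sterol reductase, was low in all libraries, at 1.60 to 2.33 CPM, and shares 12.1% of its exon bases with Vps51.

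All 5 genes of the sterol sensors and SREBP factors had negative estimates, and the median was -0.21. For 2 of them Il33flx lay lower without overlap, against 14.9% of all genes. Srebf2 (chr15:82147181-82205379, plus strand), the main factor for sterol genes, read 742 and 625 CPM in Ctrl and 618 and 569 CPM in Il33flx. Its separation was narrow, and the estimate was -0.20 ± 0.18 (SE) in log2 units (95% interval -0.64 to 0.23). It was -0.067 without Ctrl 1 and -0.33 without Ctrl 2. Insig1 (chr5:28071363-28078662, plus strand), itself an SREBP target, read 33.4 and 33.7 CPM in Ctrl and 28.4 and 25.2 CPM in Il33flx. The Ctrl libraries were close together and both Il33flx libraries lower, at 79.8% of the Ctrl mean, with a log2 fold change of -0.33 ± 0.20 (SE) and an unadjusted edgeR p of 0.144.

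Insig2, the second inhibitor, read 33.5 and 37.2 CPM in Ctrl and 35.3 and 35.1 CPM in Il33flx. The log2 estimate of -0.01 had a 95% interval from -0.47 to 0.45, so a difference up to that size in either direction is not excluded. Srebf1, the main factor for fatty acid genes, read 137 and 92.6 CPM in Ctrl and 86.2 and 107 CPM in Il33flx. Scap read 154 CPM in Ctrl 1 and 114 to 116 CPM in the other 3 libraries. Scap and Srebf1 were both highest in Ctrl 1.

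Fatty acid genes held members on both sides, with a median of -0.21. Of 9, 5 were lower and 2 higher without overlap, against 14.9% and 15.4% of all genes. Acly, which supplies cytosolic acetyl-CoA, read 488 and 393 CPM in Ctrl and 367 and 372 CPM in Il33flx. Acaca, the carboxylase that commits acetyl-CoA to fatty acids, read 18.4 and 19.9 CPM in Ctrl and 19.9 and 16.9 CPM in Il33flx. Fasn (chr11:120805846-120824547, minus strand) read 444 and 371 CPM in Ctrl and 311 and 278 CPM in Il33flx. The groups were apart for Acly and Fasn and overlapped for Acaca.

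Fasn means were 408 ± 51.8 and 294 ± 23.3 CPM (SD, n = 2 each), and the log2 estimate of -0.47 ± 0.18 (SE) had a 95% interval from -0.91 to -0.03. By edgeR the unadjusted p was 0.0392 and the adjusted p 0.995.

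Estimates of the desaturases lay on both sides of 0. Scd1 (chr19:44394455-44407879, minus strand) read 4.78 and 5.20 CPM in Ctrl and 9.15 and 6.95 CPM in Il33flx, on 367, 391, 646 and 492 counts. Both Il33flx libraries were higher, with means of 4.99 ± 0.294 and 8.05 ± 1.56 CPM (SD, n = 2 each). The log2 estimate of 0.69 ± 0.28 (SE) had a 95% interval from 0.01 to 1.37, an unadjusted edgeR p of 0.0472 and an adjusted p of 0.995. Scd2 (chr19:44293674-44306864, plus strand), the related desaturase, was the more abundant form, at 21.6 CPM per kilobase of exon against 1.02 for Scd1 in Ctrl.

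Scd2 read 111 and 124 CPM in Ctrl and 102 CPM in both Il33flx libraries, a log2 fold change of -0.21 ± 0.17 (SE). The difference between the responses of Scd1 and Scd2 was not tested. Fads1, which desaturates polyunsaturated fatty acids, read 75.8 and 83.8 CPM in Ctrl and 65.2 and 70.5 CPM in Il33flx. Fads2, which acts before it, read 14.2 and 12.3 CPM in Ctrl and 11.2 and 10.6 CPM in Il33flx. Both were lower without overlap.

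Elovl6, which extends palmitate, read 9.41 and 11.7 CPM in Ctrl and 12.1 and 14.1 CPM in Il33flx, a narrow separation upward. Elovl5, which extends polyunsaturated fatty acids, read 99.9 and 125 CPM in Ctrl and 126 and 115 CPM in Il33flx, with overlap.

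Among the 5 LXR and transport genes, only Abca1 was apart between the groups, and the median was -0.13. Abca1 (chr4:53030787-53159895, minus strand), the pump that loads cholesterol onto apolipoprotein A-I, read 2.94 and 2.34 CPM in Ctrl and 1.73 and 1.52 CPM in Il33flx. Both Il33flx libraries were lower, on 122 and 108 counts against 226 and 176, at 61.6% of the Ctrl mean. The log2 estimate of -0.70 ± 0.36 (SE) had a 95% interval from -1.56 to 0.16 and an unadjusted edgeR p of 0.0951.

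Abcg1, which exports sterol to lipoprotein particles, was much more abundant, at 26.3 CPM per kilobase of exon in Ctrl against 0.255 for Abca1. It read 228 and 156 CPM in Ctrl and 180.3 and 156 CPM in Il33flx, with overlap. Nr1h2, which encodes LXR beta, read 168 and 123 CPM in Ctrl and 128 and 138 CPM in Il33flx. Nr1h3, which encodes LXR alpha, read 8.72 and 4.48 CPM in Ctrl and 5.86 and 6.44 CPM in Il33flx. Both receptors ran from highest in Ctrl 1 to lowest in Ctrl 2. Stard4, a cytosolic sterol carrier, read 10.5 CPM in Ctrl 1 and 18.1 to 22.3 CPM in the other 3 libraries.

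**Figure D1:**
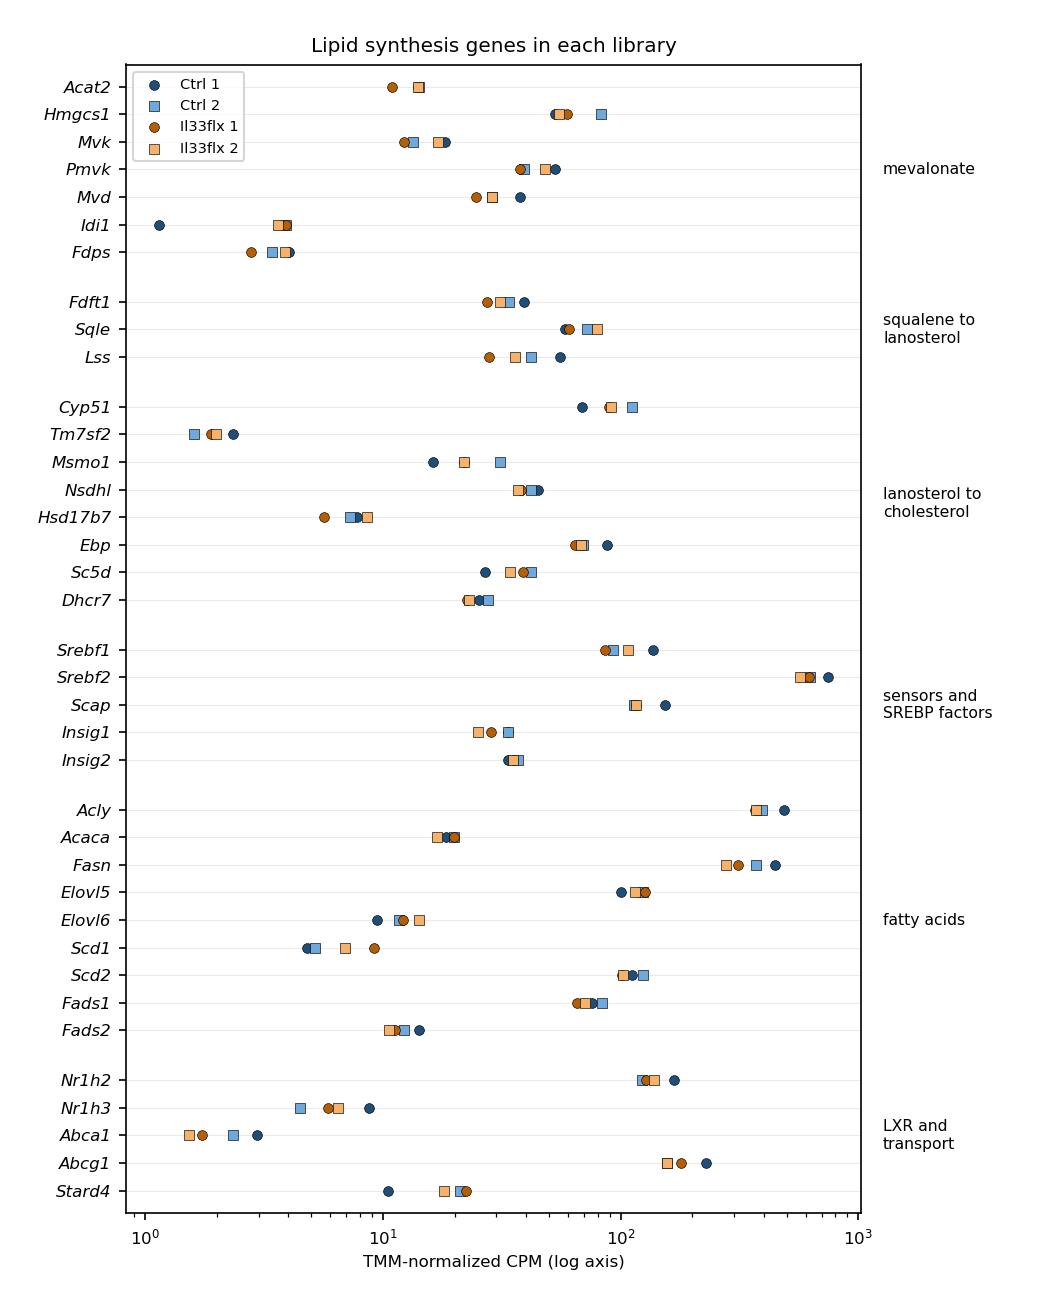
TMM-normalized CPM (log axis) of the 37 genes in each of the 4 libraries, grouped by role; circles are replicate 1 and squares replicate 2, blue Ctrl and orange Il33flx. Idi1 and Stard4 show Ctrl 1 alone at the low end, and Lss, Fasn and Abca1 show both orange points left of both blue points.

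**Figure D2:**
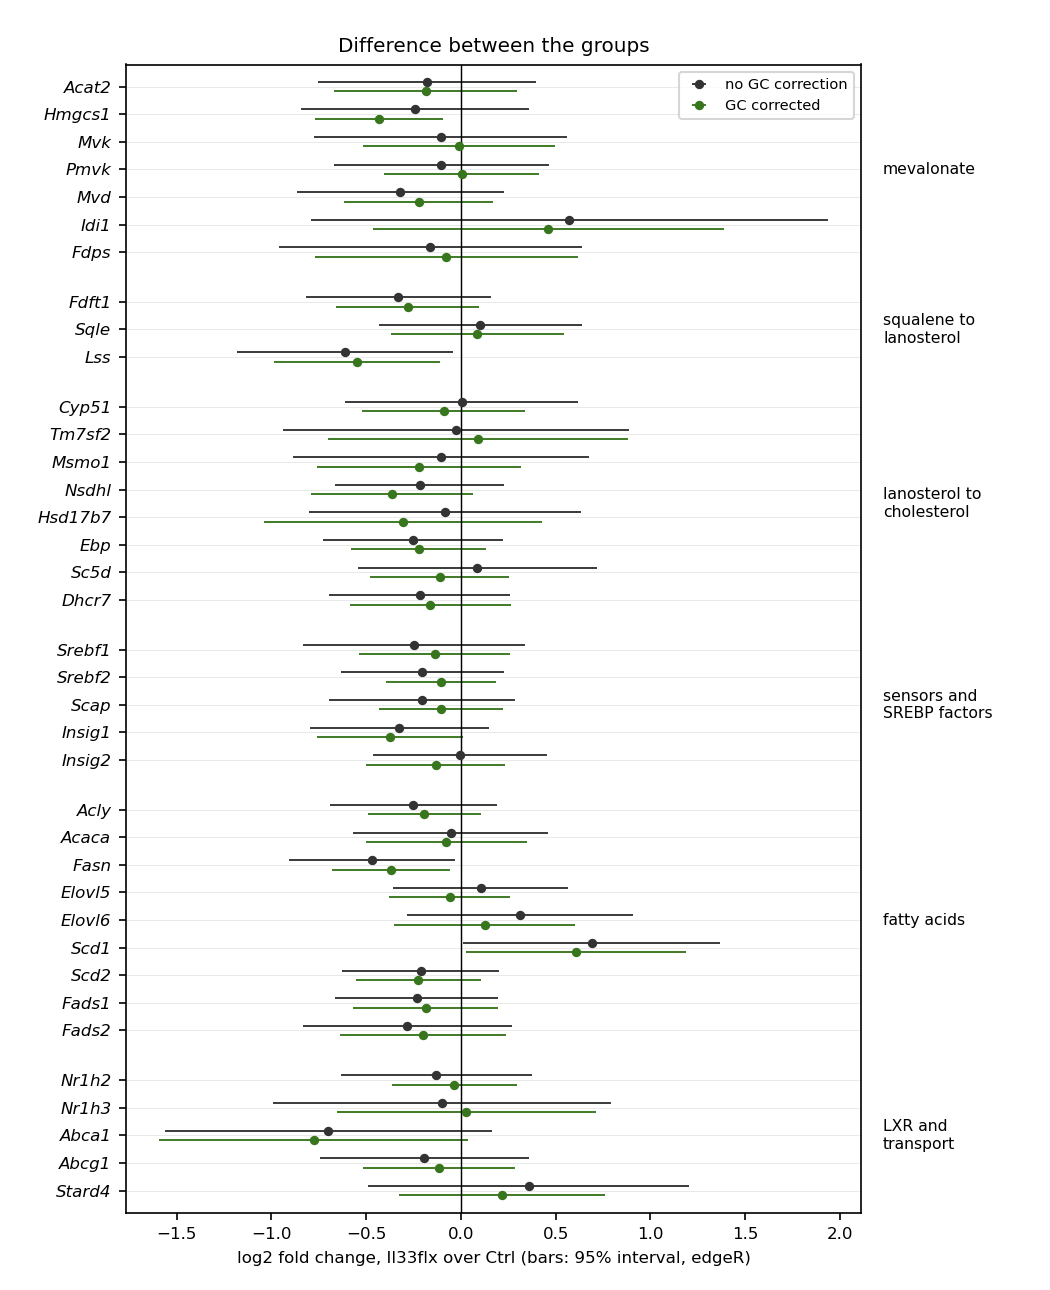
Log2 fold change of Il33flx over Ctrl for each gene with its 95% interval (edgeR), without and with a correction for transcript GC content. Most estimates lie left of 0, and without the correction the intervals of Lss, Fasn and Scd1 exclude 0 before adjustment over all genes.

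Per kilobase of exon, the most abundant genes in Ctrl were Srebf2 at 95.2 CPM, Acly at 83.4 CPM, Nr1h2 at 43.4 CPM and Fasn at 37.3 CPM. The least abundant were Abca1 at 0.255 CPM, Tm7sf2 at 0.446 CPM and Idi1 at 0.721 CPM. The length was that of all annotated exons of a gene together, and the order depends on this choice. For Tm7sf2 it was 4403 bases, against 1498 for the longest protein-coding transcript, and for Lss 10787 against 4667. Insig1 and Insig2 stood near each other, at 10.9 and 10.2 CPM per kilobase.

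The Ctrl libraries differed from each other more than the groups did. The median absolute log2 difference over the 37 genes was 0.32 between Ctrl 1 and Ctrl 2, 0.16 between the Il33flx libraries and 0.21 between the groups, the last being a difference of fitted group levels. Over all genes the values were 0.38, 0.23 and 0.21. Ctrl 1 was the highest of the 4 libraries for 19 of the 37 genes and the lowest for 11. These counts have no share over all genes beside them. Ctrl 1 lay above Ctrl 2 for 20 of the 37 genes, and for 7584 of 14794 genes with counts in every library. Which genes were high in Ctrl 1 followed the GC content of their transcripts. Across the 37 genes, GC content and the log2 ratio of Ctrl 1 over Ctrl 2 had a Spearman rho of 0.82 and a Pearson r of 0.77. Over 9264 genes of at least 5 CPM the values were 0.66 and 0.65. These are correlations across genes of the same libraries, which are not independent replicates.

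The 10 genes of lowest GC content, 41.9% to 46.0%, among them Idi1, Sc5d, Hmgcs1 and Stard4, had a median log2 ratio of Ctrl 1 over Ctrl 2 of -0.48, and 8 of them were below 0. The 10 genes of highest GC content, 56.5% to 60.6%, among them Nr1h3, Fasn, Srebf1, Srebf2 and Mvk, had a median of 0.44, and 10 were above 0. Between the Il33flx libraries the rho was -0.37 over the 37 genes and -0.22 over the 9264. For the group log2 fold change it was -0.42 and -0.47.

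**Figure D3:**
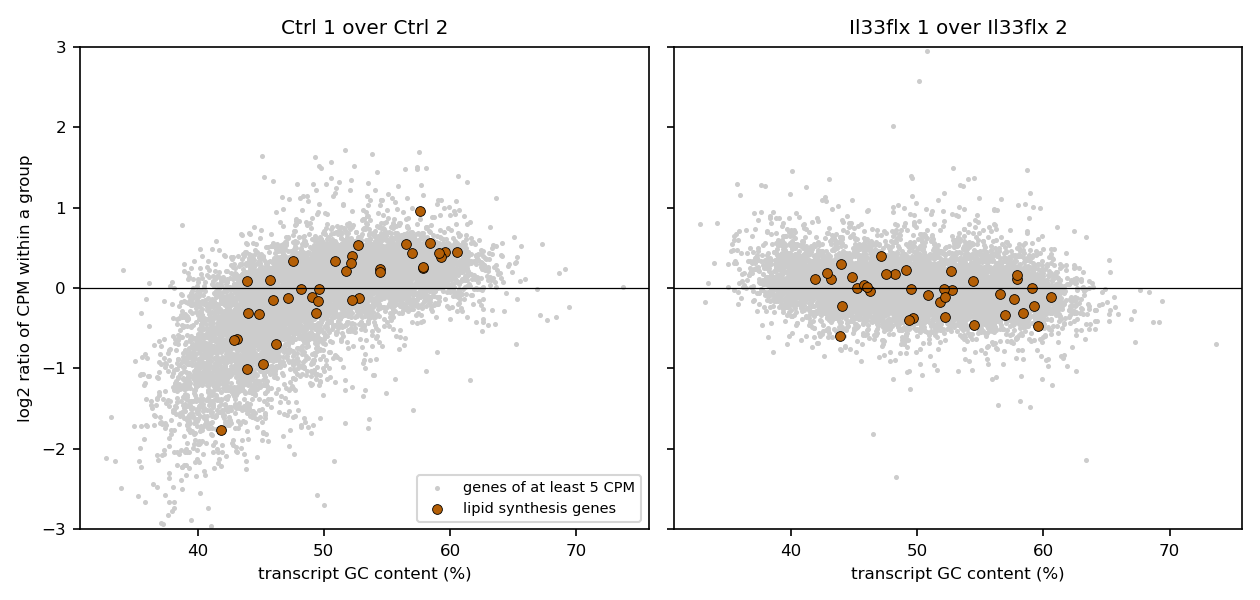
Log2 ratio of CPM between the 2 libraries of each group against transcript GC content in percent; orange points are the 37 genes and grey points the 9264 genes of at least 5 CPM, of which 9 lie outside the axis. In Ctrl the orange points climb from -1.77 for Idi1 to above 0 at high GC content, and in Il33flx they lie between -0.60 and 0.40.

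With counts corrected for GC content in each library, a step added after the data had been seen, 0 of the 37 genes were called by edgeR (smallest adjusted p 0.953, with a range of 0.125 to 1 over the other settings), and 1 of 14995 genes was called. The median was -0.13 against -0.01 over all genes. Again 15 genes were lower without overlap, against 17.9% of all genes, and 2 were higher, against 16.1%. Of the 15 lower before the correction, 12 were lower in both. Over all genes, 1860 of the 2234 lower before it were lower in both. Acat2, Dhcr7 and Fads1 were no longer apart, while Hmgcs1, Sc5d and Insig2 were. The higher genes were then Scd1 and Idi1.

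Unadjusted p under 0.05 was reached after the correction by Hmgcs1, Lss and Fasn in the lower direction, against 2.21% of all genes, and by Scd1 in the higher direction, against 2.44%. Corrected Hmgcs1 values were 69.3 and 73.0 CPM in Ctrl and 53.8 and 51.7 CPM in Il33flx, a log2 fold change of -0.43 ± 0.14 (SE). The log2 difference between the Ctrl libraries was smaller after the correction for 28 of the 37 genes, Hmgcs1 among them, and larger for 9, among them Nsdhl (51.7 and 39.6 CPM) and Hsd17b7 (9.75 and 6.58 CPM). Its median size over the 37 genes was 0.32 before and 0.18 after. The correction fits and removes each library's own trend with GC content. A smaller difference between the Ctrl libraries is thus in part built in and is no check of the correction. Corrected Fasn values were 390.2 and 392 CPM in Ctrl and 324 and 281 CPM in Il33flx, a log2 fold change of -0.37 ± 0.13 (SE). For Lss and Scd1 the corrected log2 fold changes were -0.55 ± 0.19 and 0.61 ± 0.24 (SE).

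**Figure D4:**
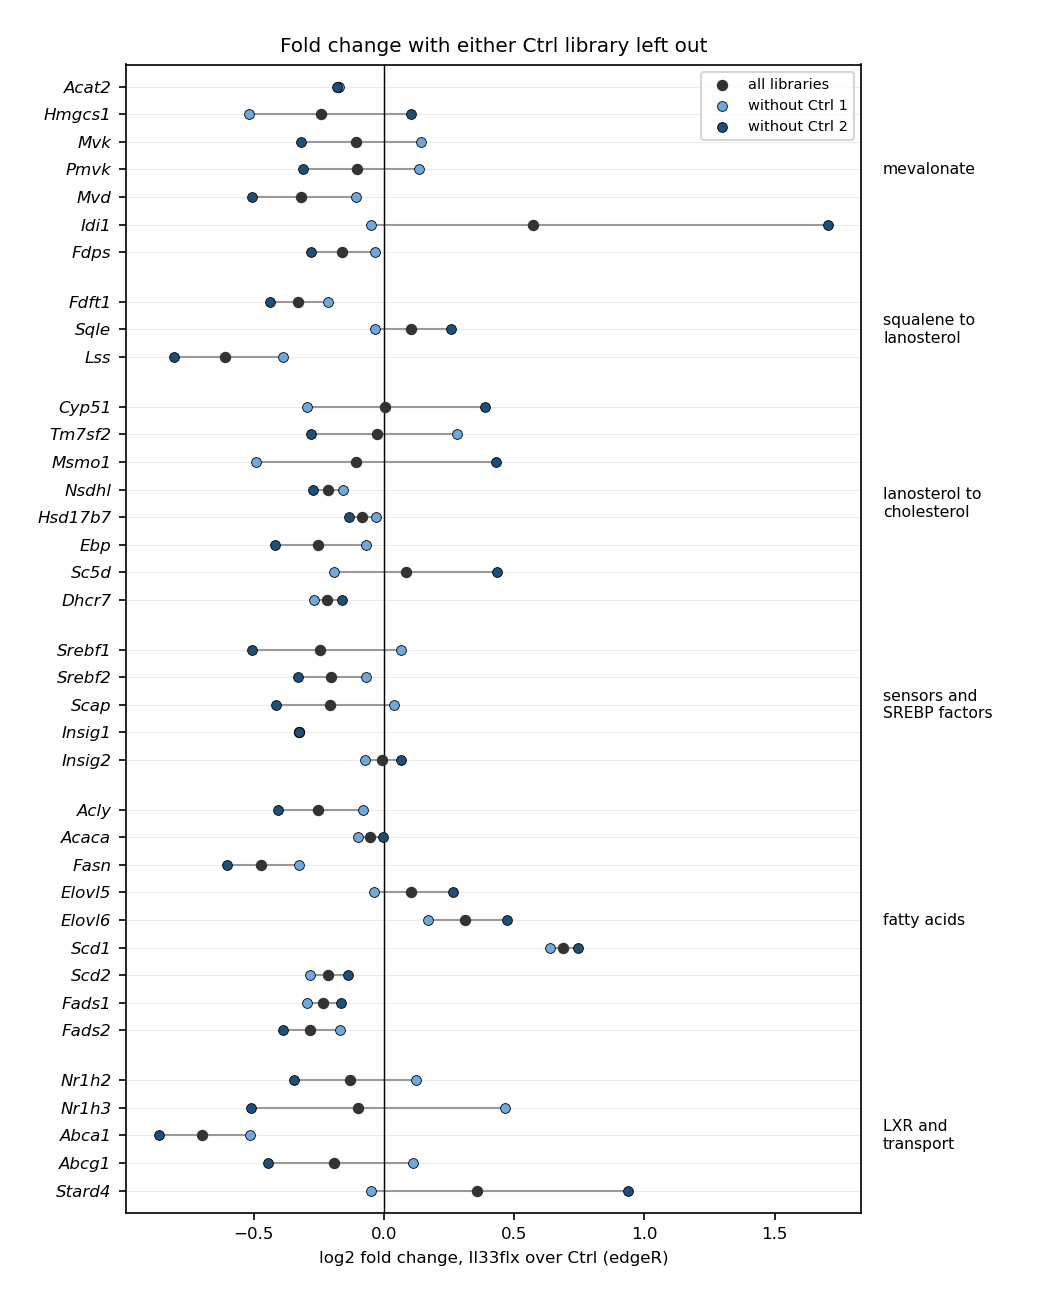
Log2 fold change of Il33flx over Ctrl with all libraries (black), without Ctrl 1 (light blue) and without Ctrl 2 (dark blue). Idi1, Msmo1, Cyp51, Sc5d, Nr1h3 and Stard4 cross 0 depending on which Ctrl library is used, with Idi1 going from -0.05 to 1.70.

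Genes around these pathways were read from 6 lists, of which 74 of 80 genes were tested. By edgeR 0 were called, 17 were lower and 6 higher without overlap (against 14.9% and 15.4% of all genes, the background for each list below), and 1 had an unadjusted p under 0.05. Of 20 other fatty acid and glycerolipid genes, 6 were lower and 2 higher, with a median of -0.12. Aacs, which activates acetoacetate for lipid synthesis, read 175 and 134 CPM in Ctrl and 111 CPM in both Il33flx libraries, a log2 fold change of -0.48 ± 0.20 (SE) with an unadjusted edgeR p of 0.0488. Acss2, which makes acetyl-CoA from acetate, read 42.1 and 31.1 CPM in Ctrl and 29.0 and 24.6 CPM in Il33flx. Both were lower without overlap.

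Of 9 genes of SREBP processing and sterol-regulated degradation, 2 were lower and 0 higher, with a median of 0.04. Fbxw7, which targets nuclear SREBP for degradation, had a log2 fold change of 0.42 with overlap. Of 9 LXR partners and targets, 3 were lower and 1 higher, with Rxrb, a partner receptor, at -0.32 and Smpdl3a at 0.34.

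Of 12 genes of sterol traffic, 3 were lower and 2 higher. Npc1, which moves cholesterol out of lysosomes, read 19.3 and 20.9 CPM in Ctrl and 26.5 and 25.8 CPM in Il33flx, higher without overlap, while Stard3, a late endosomal sterol carrier, had a log2 fold change of -0.42. Of 15 genes of fatty acid oxidation, 3 were lower and 0 higher, with Acadl at -0.20 and Pparg at -0.37. Of 9 isoprenoid and other sterol enzymes, 0 were lower and 1 higher, with Pdss1 at 0.35 and Acat1 at 0.15.

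Markers of DCs and of other cells differed between the libraries beside these genes. The 9 conventional DC markers summed to 7281 and 6526 CPM in Ctrl and 5829 and 6450 CPM in Il33flx. Without overlap, 2 of them (Irf8 and Zbtb46) were lower and 1 (Irf4) higher, against 14.9% and 15.4% of all genes. Their median log2 fold change was 0.10, and 0 were called. The 8 mature DC markers summed to 2356 CPM in Ctrl 1 and to 1151 to 1245 CPM in the other 3 libraries, and 1 of 8 was lower in Il33flx without overlap. The 8 B cell markers summed to 56.8 and 62.1 CPM in Ctrl and 122 and 105 CPM in Il33flx, and 8 of 8 were higher. The 8 erythroid markers summed to 2.59 and 2.75 CPM in Ctrl and 18.8 and 11.7 CPM in Il33flx, with 7 of 8 higher and Klf1 and Slc4a1 at 0 counts in Ctrl 1. Erythroid and B cell sums were thus higher in both Il33flx libraries.

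The 8 neutrophil markers summed to 302 and 229 CPM in Ctrl and 503 and 360.2 CPM in Il33flx, with 4 of 8 higher. Those 4 were Elane, Mpo, Prtn3 and Ctsg, while Ly6g, Ltf, Ngp and S100a8 overlapped between the groups. Mpo alone read 106 and 38.0 CPM in Ctrl and 191 and 143 CPM in Il33flx. The 8 T cell and EL4 markers summed to 130.4 and 88.9 CPM in Ctrl and 83.5 and 73.6 CPM in Il33flx, with 6 of 8 lower. The summed macrophage markers (140.5 to 178 CPM) and proliferation markers (1468 to 1824 CPM) overlapped between the groups, with 1 of 8 macrophage markers, Spic, higher and 0 of 8 proliferation markers apart. In sorted bulk samples, fewer cells of a type and less RNA per cell cannot be told apart. The part of these cell types, and of GC content, in the lipid gene values was not tested beyond the correction above.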

How the data were processed

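The deposited gene counts were whole-number read counts per Ensembl gene without normalization by the authors. Tools listed in the submitters' processing notes are Trimmomatic 0.39, STAR, HTSeq and DESeq2, with build GRCm38. Annotation release and strand setting: not given in the sources used here. The authors' deposited table of 15001 genes gave a signal per library (counts divided by 1 size factor), the authors' log2 fold change and its error, a Wald score, and the authors' p-values. Of the reads, 69.9% to 72.2% were in genes; the 5 summary rows stayed out of library sizes and tests.

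Il33flx was compared with Ctrl by edgeR 4.0.16 in R 4.3.3 (filterByExpr, TMM, no covariate, Benjamini-Hochberg over 14995 genes, called below 0.05). Standard errors were taken as the estimate over the root of its F statistic. The biological coefficient of variation was 28.6%. A permutation test of 2 libraries against 2 has 0.333 as its smallest two-sided p and was not run. GENCODE M21 named 45143 rows. GC content was that of the longest protein-coding transcript, known for 14945 of the genes tested, and was corrected by loess (span 0.3) as edgeR offsets. DESeq2 1.42.0 and limma 3.58.1 were alternatives. The code was tested on simulated data. Limits that a count of 0 allows cover counting error only.

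The members and lists were chosen with earlier results of these data known. All members are reported, and of each other list the 2 genes with the smallest p that reached 5 CPM in the group with more. A list of further SREBP targets, and a gene that this rule took, are not reported here.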

Additional observations from a re-analysis of the deposited data

How the results depend on the processing

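Each group has 2 libraries, which limits the precision of every estimate; the lowest count of a member in a library was 88. No member was called in any setting run (edgeR, DESeq2, limma-voom, other scalings and filters, replicate block, each library left out, GC correction). An unadjusted p under 0.05 was reached by 3 members with edgeR, against 489 of 14995 genes, and by 3 with DESeq2, against 518 of 15324. It was reached by 2 with limma-voom (511 of 14995 genes), 1 with library size alone (504) and 0 with the replicate block (538). With a library left out, member counts at that unadjusted threshold are not given, because a group then holds a lone library. Over all genes 1 was called by edgeR, 53 by DESeq2, 0 by limma-voom (511 at an unadjusted p under 0.05), 0 with library size alone (504), 0 with no filter on low counts (591) and 0 to 36 with a library left out (36 without Ctrl 1, 0 without Ctrl 2, 29 without Il33flx 1 and 1 without Il33flx 2), where the lone library of a group is assumed to vary like the other group. The cause was not tested.

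The replicate numbers are not said to pair samples, and deviations of same-numbered libraries correlated at -0.11 over 14995 genes. With the number as a replicate block 33 genes were called, and with the crossed pairing, added after seeing the data, 0 (436 at an unadjusted p under 0.05); neither called a member.

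The median of the members was -0.10 with library size alone, which moved the median of all genes to 0.09, and -0.28 to -0.071 with a library left out. Members lower without overlap numbered 17 to 24 and members higher 4 to 11 with a library left out, where fewer libraries make separation easier: over all genes 26.6% to 37.7% were lower and 29.9% to 40.9% higher. With library size alone 11 were lower, against 10.1% of all genes.

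Some estimates changed sign, among them ones not near 0 in the main fit: Idi1 (0.57), Stard4 (0.36), Srebf1 (-0.25) and Hmgcs1 (-0.24). Cyp51 was -0.020 with DESeq2, -0.014 with its size factors in edgeR, -0.0043 with no filter and -0.092 with the GC correction. With library size alone Insig2 was 0.070, Acaca 0.024 and Tm7sf2 0.060, and Insig2 was 0.0058 with at least 1 CPM in 2 libraries. With the GC correction Nr1h3 was 0.028, Tm7sf2 0.088, Pmvk 0.0032, Sc5d -0.11 and Elovl5 -0.059. With a library left out, 20 members changed sign: Abcg1 (-0.44 to 0.11), Acaca (-0.18 to 0.085), Cyp51 (-0.30 to 0.39), Elovl5 (-0.039 to 0.27), Fdps (-0.38 to 0.052), Hmgcs1 (-0.52 to 0.11), Hsd17b7 (-0.38 to 0.18), Idi1 (-0.050 to 1.70), Insig2 (-0.071 to 0.064), Msmo1 (-0.49 to 0.43), Mvk (-0.33 to 0.14), Nr1h2 (-0.35 to 0.12), Nr1h3 (-0.51 to 0.46), Pmvk (-0.31 to 0.13), Sc5d (-0.19 to 0.43), Scap (-0.41 to 0.038), Sqle (-0.078 to 0.29), Srebf1 (-0.51 to 0.067), Stard4 (-0.051 to 0.94) and Tm7sf2 (-0.28 to 0.28). Members that kept their sign but moved by over 1.5 times were Acat2 (-0.34 to -0.0067), Mvd (-0.51 to -0.11), Fdft1 (-0.44 to -0.22), Lss (-0.80 to -0.39), Ebp (-0.42 to -0.069), Srebf2 (-0.33 to -0.067), Insig1 (-0.42 to -0.21), Acly (-0.41 to -0.080), Elovl6 (0.17 to 0.47), Scd2 (-0.28 to -0.14) and Fads2 (-0.39 to -0.17). The signs of these are fixed where the groups do not overlap.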
